A study of Rattus norvegicus with 12 samples.

Results

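Genes that erase or write histone acetyl and methyl marks, and those that methylate DNA, were read out in rat hippocampal cultures after oxygen-glucose deprivation (OGD), which models ischaemia in a dish. The genes were chosen by symbol and not by a cut-off on their values, though with earlier results of these data known. The rule took rat symbols starting with Hdac, Sirt, Kdm, Dnmt, Ezh or Suv39h, or with Kat, Tet or Chd followed by a digit. Hdac1, Hdac2 and Kdm1a were left out. A probe could be assigned through its transcript accession to 38 of the 69 protein-coding genes that meet this rule, out of 15154 genes that could be named on the array. The other 31, all 3 Tet dioxygenases, Sirt1, Sirt2, Hdac4, Hdac6, Hdac7, Dnmt3b and Kdm6a among them, were not analysed here.

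The cultures were prepared from hippocampi of E18 Wistar rat embryos and kept for 14 to 15 days. OGD cultures spent 2 h in buffer without glucose in an anaerobic chamber, control (Ctrl) cultures spent the same period in buffer with glucose in an ordinary incubator, and both then recovered in their conditioned medium for 7 h or 24 h. The earlier time was set before the onset of cell death and the later one after it. Each of the 4 groups held 3 replicates, given by the study's methods as independent cultures, on 12 one-colour arrays. A slide carried a control array and the OGD array with the same time and number, so OGD minus control could also be read within a slide. By those methods the cultures also contained a minority of glial cells, and the RNA is that of the whole culture, so fewer cells of a type and less RNA per cell cannot be told apart in any value below.

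Acetyl groups on histone tails loosen chromatin and are placed by lysine acetyltransferases (the Kat genes). They are removed by histone deacetylases (the Hdac genes) and some of the NAD-dependent sirtuins. Methyl groups on histone lysines are placed by enzymes such as Ezh2 and Suv39h1 and removed by the Kdm demethylases, DNA methyltransferases mark cytosines, and the Chd proteins are ATP-driven remodellers that slide nucleosomes. In neurons several of these enzymes are known to be regulated by activity and to set which synaptic and survival genes can be transcribed.

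Promoters are shown for Kdm6b, higher in OGD at 7 h, and for Hdac5, lower in OGD at both times, since these genes have a reference entry and the Kdm6b call at 7 h and the Hdac5 call at 24 h held with each array left out in turn. Each is a promoter window of 250 bases for GRCr8, read 5′ to 3′ on the gene's minus strand. Capitals mark a match to the letters ACGTG on either strand, the core of the hypoxia response element. The Kdm6b window is chr10:54641015-54641264, directly before the gene start at 54641014 in RefSeq. The Hdac5 window is chr10:87688055-87688304, while the gene start in RefSeq is at 87688078. The last bases of the Hdac5 window thus lie inside the gene, and the capitals lie at its start.
Kdm6b: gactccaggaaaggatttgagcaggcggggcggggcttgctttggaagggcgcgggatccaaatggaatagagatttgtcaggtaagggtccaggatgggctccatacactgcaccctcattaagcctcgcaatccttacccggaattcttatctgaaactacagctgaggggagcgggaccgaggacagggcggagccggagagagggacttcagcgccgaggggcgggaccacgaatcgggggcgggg
Hdac5: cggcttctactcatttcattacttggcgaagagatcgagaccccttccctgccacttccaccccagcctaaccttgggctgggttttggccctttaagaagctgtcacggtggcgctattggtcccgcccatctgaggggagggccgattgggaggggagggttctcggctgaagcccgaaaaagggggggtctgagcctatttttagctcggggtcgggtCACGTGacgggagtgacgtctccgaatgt
The Kdm6b window is 60.4% G and C with 16 CpG dinucleotides and holds no match to ACGTG, to the AP-1 letters TGANTCA or to the CRE letters TGACGTCA. In Hdac5, 58.8% G and C with 15 CpG, the palindrome in capitals holds 2 overlapping ACGTG matches, one on each strand. ACGTG was found in 12 of the 35 member promoters in the table (34.3%), against 16.6% of all 33469 promoters of the same length and 19.1% of the 12904 that belong to genes named on the array. TGANTCA was found in 2 member promoters (5.71%, against 6.34% of all) and TGACGTCA in 1 (2.86%, against 1.59%). A match describes the letters in these windows and was not tested against the expression values.

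Probe levels below are log2 signals relative to the median of the same array, so a level of 1 is 2 times the array's median probe. They compare samples for 1 probe and not genes with each other. Of the 38 genes, 35 were well above background on all 12 arrays. The exceptions were Suv39h2 (10 of 12), Dnmt3l (5 of 12) and Dnmt1 (0 of 12), and no member was saturated. A gene is called here where the limma test, fitted over all 30367 probes, gave an unadjusted two-sided p under 0.05. With Benjamini-Hochberg adjustment over all probes 0% of probes were under 0.05 in limma at 7 h, 0% at 24 h and 0% for the difference between the times. The lowest adjusted p of any probe was 0.117 at 7 h and 0.209 at 24 h, so every call below rests on the unadjusted threshold. The adjusted p stands beside the values of the members given in full, and several uncalled values are given with their SE alone or without it.

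The arrays differed in brightness. Median spot intensity was 447.1 to 660.3 in control and 234.2 to 425.7 in OGD at 7 h, and 402 to 476.5 in control and 130.6 to 546.4 in OGD at 24 h. OGD replicate 1 was the dimmest array of its group at both times, and the 24 h one also stood apart in its values, with r = 0.968 and 0.957 over probes to its replicates. Across all 14 neuron markers measured, which were all well above background on every array, 2 were lower at 7 h and 8 at 24 h, and the summed neuron marker signal of OGD arrays at 24 h was 526.2 to 879.3 times the array median against 894.9 to 1202.5 in control. Of the 9 astrocyte markers measured, 2 were higher at 7 h and 0 at 24 h. Of 10 oligodendrocyte lineage markers 2 were lower at 7 h (Sox10 and Cspg4) and 1 higher at 24 h (Olig2). Of 8 vascular cell and fibroblast markers 2 were lower at 7 h (Pecam1 and Cldn5) and 1 higher at 24 h (Pdgfrb). Pecam1 and Cldn5 were well above background on only 9 and 6 of the 12 arrays. Of the 8 markers 4 were above 0 and 4 below at 7 h. The neuron shares lower were 14.3% at 7 h and 57.1% at 24 h. Among all probes 7.03% were lower and 4.79% higher at 7 h, and 6.19% and 7.51% at 24 h.

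At 7 h, 2 members were higher after OGD, Chd2 and Kdm6b. Lower were 5: the deacetylases Hdac3 and Hdac5, the sirtuins Sirt4 (mitochondrial) and Sirt7, and the demethylase Kdm4d. That is 5.26% of members higher, where 4.79% of all probes were, and 13.2% lower, where 7.03% of all probes were. At 24 h Ezh2 alone was higher, and Hdac5, Hdac11 and Kdm4b were lower. These are 2.63% and 7.89% of members against 7.51% and 6.19% of all probes. Only Kdm4d at 7 h also passed a fold of 2, 1 member lower and 0 higher, where 1.66% of all probes were lower and 2.08% higher by that rule; at 24 h 0 members passed it, where 1.96% of probes were lower and 3.71% higher. Among all named genes, each on its brightest probe, 8.06% were lower at 7 h. The 13.2% of members lower at 7 h rests on 5 genes, of which 0 were called without OGD replicate 1. It is therefore not read as apart from the background, and the other shares were near or below those of all probes. Over all probes called at 7 h 40.5% were higher, against 51.6% with centring on the 75th percentile, 63.3% with normexp and 20.7% with scaling to a spike-in probe. At 24 h 54.8% of calls were higher, against 59.1%, 30.7% and 3.72%. For the members at 7 h the 75th percentile gave 3 higher and 4 lower.

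Small differences leaned below 0. Among the 36 genes well above background on at least 1 array of every group, 29 (80.6%) had an estimate below 0 at 7 h and 29 at 24 h, with medians of −0.24 and −0.26 on the log2 scale. The size and count moved with the scaling: centring on the 75th percentile gave 24 and 28 genes below 0 with medians of −0.12 and −0.15, and normexp background correction 29 and 30 genes with medians of −0.43 and −0.44. Over all named genes 59.9% and 53.5% were below 0, with medians of −0.11 and −0.03. At 7 h, 11 members (28.9%) had all OGD arrays below all control arrays, where 15.5% of probes did, and 2 had all above, where 10.6% of probes did. At 24 h the same counts were 3 below, against 7.02% of probes, and 1 above, against 10.9% of probes. The lean was uneven between slides: the median member difference was −0.58, −0.15 and −0.01 on the 3 slides of 7 h (replicates 1 to 3) and −0.73, −0.18 and 0.09 on those of 24 h. The slides that hold the dimmest OGD arrays thus carried the largest member shifts, and on the same slides the median of all named genes was −0.16 and −0.15. The part of array brightness or of the lower neuron markers in the lean was not tested.

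**Figure D1:**
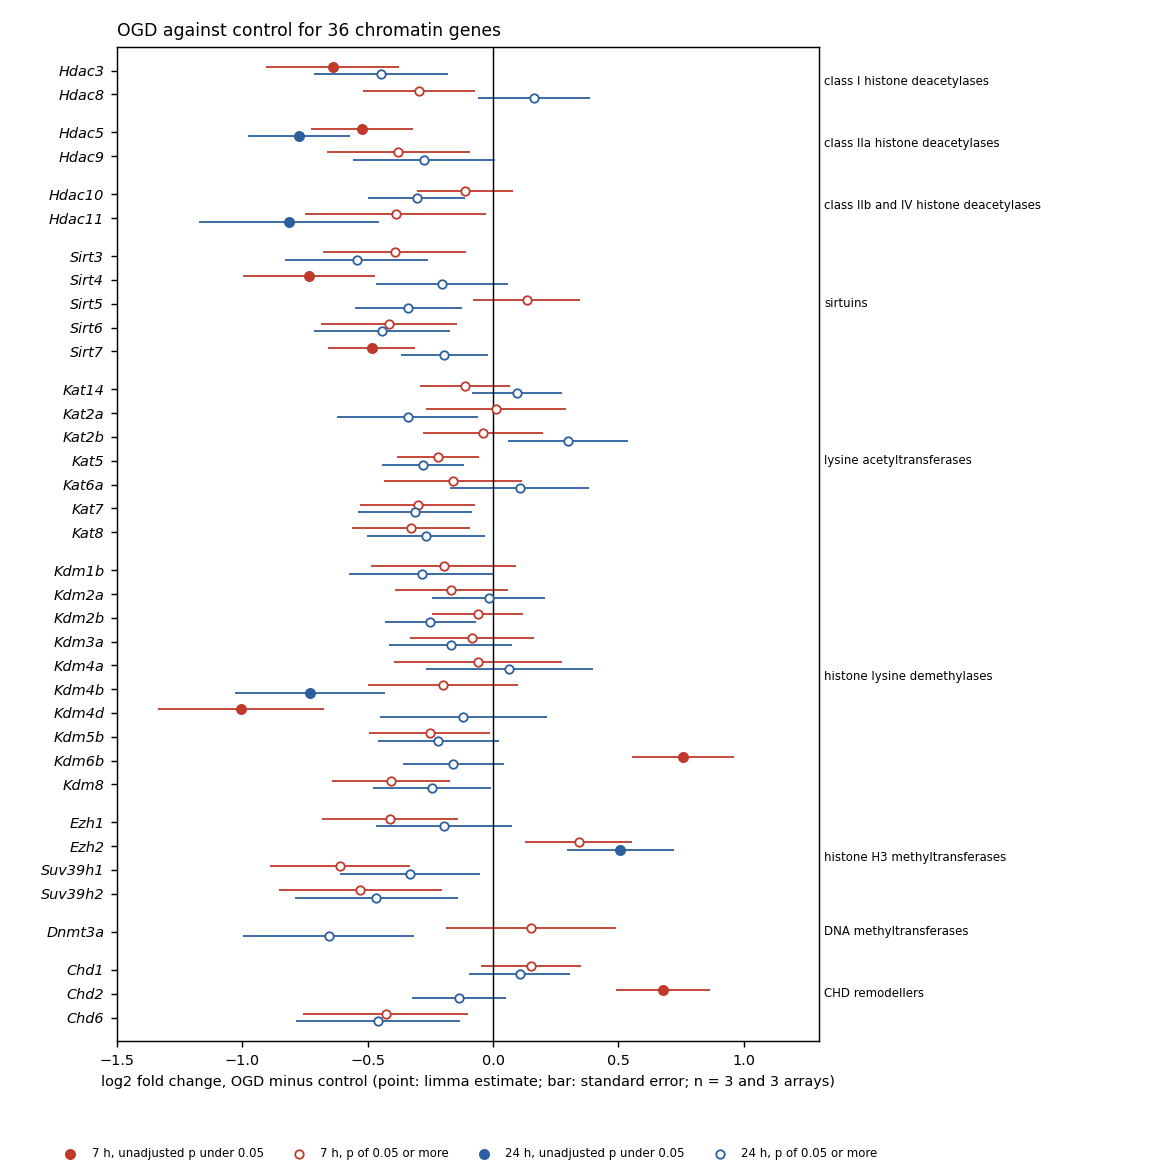
Log2 fold change of OGD over control (x axis) for 36 members, ordered by role (y axis). These are the members well above background on at least 1 array of every group. Points are limma estimates with standard errors, 3 arrays against 3, at 7 h (red) and 24 h (blue). Filled points have an unadjusted limma p under 0.05. Most points lie left of 0 at both times, while Chd2 (0.68) and Kdm6b (0.76) at 7 h and Ezh2 (0.51) at 24 h lie to the right with filled points, a direction that turned for these 3 when arrays were scaled to a spike-in probe.

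**Figure D2:**
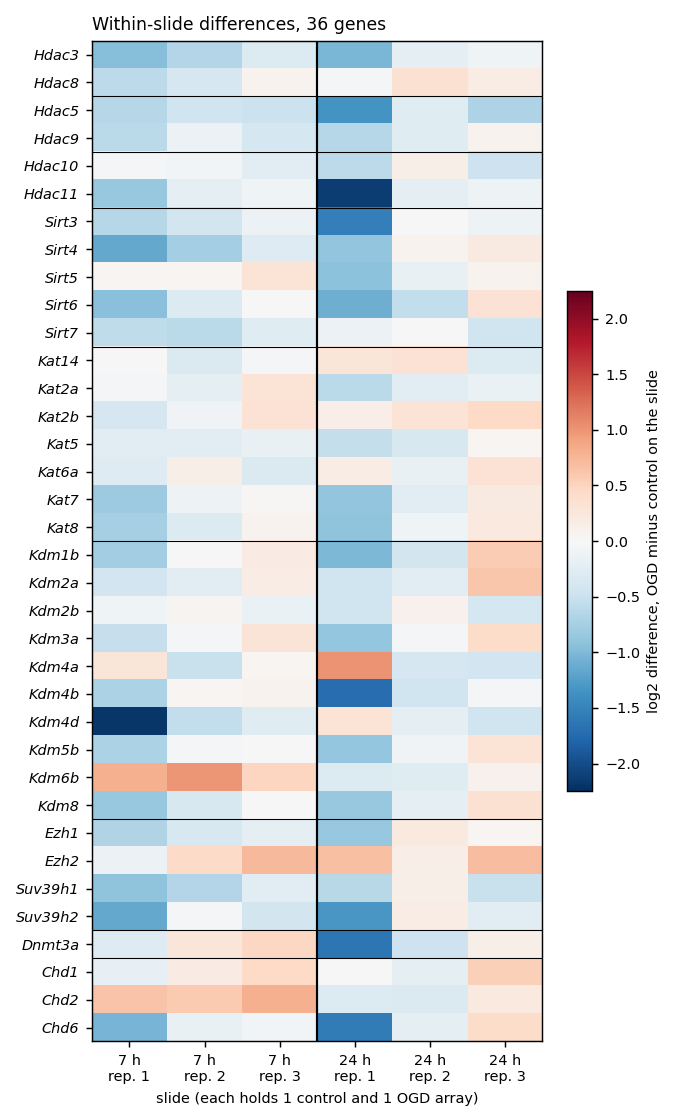
Difference of the OGD array from the control array on the same slide (log2, colour scale) for the same 36 genes (rows, grouped by role) on the 6 slides (columns). Blue (lower in OGD) is deepest in both replicate 1 columns, and Chd2 and Kdm6b are red on all 3 slides of 7 h.

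Among the class I deacetylases, Hdac3 is the catalytic subunit of the NCoR and SMRT complexes. On the control arrays of 7 h it read 3.91, 3.93 and 3.82 (replicates 1 to 3), and on the OGD arrays 2.96, 3.27 and 3.51. Every OGD array was below every control array, and the OGD values were spread more widely. The difference was −0.64 (SE 0.27), a 1.56-fold lower level (limma adjusted p = 0.391, lower on 3 of 3 slides). At 24 h control read 4.03, 4.21 and 4.07 and OGD 2.99, 3.998 and 3.97, a difference of −0.45 (SE 0.27, limma adjusted p = 0.463) that lay mostly in OGD replicate 1. Hdac8, the other class I member with a probe, gave −0.30 (SE 0.22) at 7 h and 0.16 (SE 0.22) at 24 h and was not called.

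Hdac5 is a class IIa deacetylase that shuttles between nucleus and cytoplasm with neuronal activity, and its gene lies at chr10:87653139-87688078 (GRCr8). Its control arrays read 4.08, 4.04 and 4.10 at 7 h, against 3.45, 3.59 and 3.61 after OGD. The groups did not overlap and each was tight, with SDs of 0.03 and 0.09 (n = 3). The difference was −0.52 (SE 0.20), 1.44-fold lower (limma adjusted p = 0.358). At 24 h control read 4.63, 4.29 and 4.32 and OGD 3.29, 4.02 and 3.62, again without overlap. The difference was −0.77 (SE 0.20), 1.71-fold lower (limma adjusted p = 0.262), and within slides it was −1.35, −0.27 and −0.70. The responses at 24 h and 7 h differed by −0.25 (SE 0.29, limma adjusted p = 1.0). Hdac5 was the one member called at both times, and its 24 h call kept an unadjusted p under 0.05 with each array left out in turn. At 7 h the fold ran from −0.55 to −0.47 with 1 array of that time left out, but it stayed called in 1 of these 6 fits and was not called with slide as a fixed block. Hdac9, of the same class, gave −0.38 (SE 0.28) and −0.28 (SE 0.28) and was not called.

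Hdac11, the only class IV deacetylase, was not called at 7 h (−0.39, SE 0.36, limma adjusted p = 0.691). At 24 h control arrays read 7.12, 6.29 and 6.003 and OGD arrays 4.98, 6.10 and 5.89. The groups overlapped, and 1 array, OGD replicate 1, was far below the rest. The difference of −0.82 (SE 0.36), 1.76-fold lower, was called (limma adjusted p = 0.356), and without that array it was −0.48 and not called. Hdac10, a class IIb enzyme that deacetylates polyamines, gave −0.11 (SE 0.19) at 7 h and −0.30 (SE 0.19) at 24 h, neither called. Of the 6 deacetylase genes all were below 0 at 7 h, and all but Hdac8 at 24 h.

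Among the sirtuins, Sirt4 is a mitochondrial enzyme and Sirt7 a nucleolar one. Sirt4 read 0.32, 0.07 and −0.19 on the control arrays of 7 h and −0.83, −0.70 and −0.48 on the OGD arrays. All OGD arrays were below all control arrays. The difference was −0.73 (SE 0.26), 1.66-fold lower (limma adjusted p = 0.332), and within slides −1.14, −0.77 and −0.29. With normexp background correction Sirt4 was −0.43 at 7 h and not called. By 24 h the groups overlapped, with control at 0.36, 0.37 and 0.13 and OGD at −0.53, 0.45 and 0.34 (difference −0.20, SE 0.26, limma adjusted p = 0.749). Sirt7 read 1.80, 1.76 and 1.82 in control and 1.23, 1.15 and 1.55 in OGD at 7 h. Its groups did not overlap either, and the difference was −0.48 (SE 0.17), 1.40-fold lower (limma adjusted p = 0.333). Sirt7 was −0.37 at 7 h and not called with centring on the 75th percentile. At 24 h it gave −0.19 (SE 0.17, limma adjusted p = 0.619). Sirt3 and Sirt6 gave −0.39 (SE 0.29) and −0.41 (SE 0.27) at 7 h and −0.54 and −0.44 at 24 h, and Sirt5 gave 0.13 (SE 0.21) and −0.34 (SE 0.21), none of them called. The 5 sirtuins with a probe were thus all below 0 at 24 h, where 0 were called.

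None of the 7 lysine acetyltransferases (Kat2a, Kat2b, Kat5, Kat6a, Kat7, Kat8 and Kat14) was called at either time. Their estimates ran from −0.33 to 0.01 at 7 h, with 6 of 7 below 0, and from −0.34 to 0.30 at 24 h, with 4 of 7 below 0. Kat5, the catalytic subunit of the NuA4 complex, read 6.21, 6.08 and 5.998 in control and 5.98, 5.82 and 5.83 in OGD at 7 h. The OGD arrays were all below the control arrays by a narrow margin, and the difference of −0.22 (SE 0.16) was not called (limma adjusted p = 0.612). At 24 h control read 6.66, 6.55 and 6.33 and OGD 6.13, 6.20 and 6.38, which overlapped (−0.28, SE 0.16, limma adjusted p = 0.457).

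Of the 10 demethylases, 9 were below 0 at each time. Kdm6b (chr10:54619520-54641014, GRCr8), which removes the repressive polycomb mark from histone H3, was the exception at 7 h. It read 2.42, 1.87 and 2.499 in control and 3.21, 2.87 and 2.98 in OGD. Every OGD array was above every control array, by 0.80, 1.00 and 0.48 on the 3 slides. The difference was 0.76 (SE 0.20), 1.69-fold higher (limma adjusted p = 0.262), but −0.05 with arrays scaled to a spike-in probe, a scaling under which the median of all probes was itself −0.863 and relative to which Kdm6b was 0.81 higher. At 24 h the control arrays (2.51, 2.47 and 2.20) and the OGD arrays (2.21, 2.20 and 2.29) overlapped, and the difference was −0.16 (SE 0.20, limma adjusted p = 0.747). Kdm6b responded less at 24 h than at 7 h, by −0.92 (SE 0.29, limma adjusted p = 1.0).

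Kdm4d and Kdm4b belong to the family that demethylates the heterochromatin mark of histone H3. Kdm4d (chr8:19561253-19586412, GRCr8) read −0.22, −1.23 and −1.21 in control and −2.41, −1.80 and −1.47 in OGD at 7 h. No OGD array reached a control array, though control replicate 1 was high and OGD replicate 1 low. The difference was −1.01 (SE 0.33), 2.01-fold lower (limma adjusted p = 0.309), with −2.19, −0.56 and −0.27 on the 3 slides. It was −0.67 without control replicate 1, −0.75 without OGD replicate 1 and −0.23 with normexp, and in none of these, nor by the methods' t-test, was it called. At 24 h Kdm4d gave −0.12 (SE 0.33, limma adjusted p = 0.918).

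Kdm4b was called at the later time alone, with −0.20 (SE 0.30, limma adjusted p = 0.828) at 7 h. At 24 h it read 6.09, 5.69 and 5.50 in control and 4.37, 5.25 and 5.48 in OGD. The groups just failed to overlap, and OGD replicate 1 was again the lowest array. The difference was −0.73 (SE 0.30), 1.66-fold lower (limma adjusted p = 0.332), and −0.40 and not called without that array. The change of response between the times was not called for either gene (Kdm4b −0.53, SE 0.42, and Kdm4d 0.89, SE 0.47, limma adjusted p = 1.0 for both). The remaining 7 demethylases, Kdm1b, Kdm2a, Kdm2b, Kdm3a, Kdm4a, Kdm5b and Kdm8, were not called on their brightest probe, with the lowest value −0.41 for Kdm8 (SE 0.23) at 7 h. Probes of Kdm1b disagreed, the brighter giving −0.20 (SE 0.29) and the other 0.68 (SE 0.27, called, limma adjusted p = 0.370) at 7 h.

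**Figure D3:**
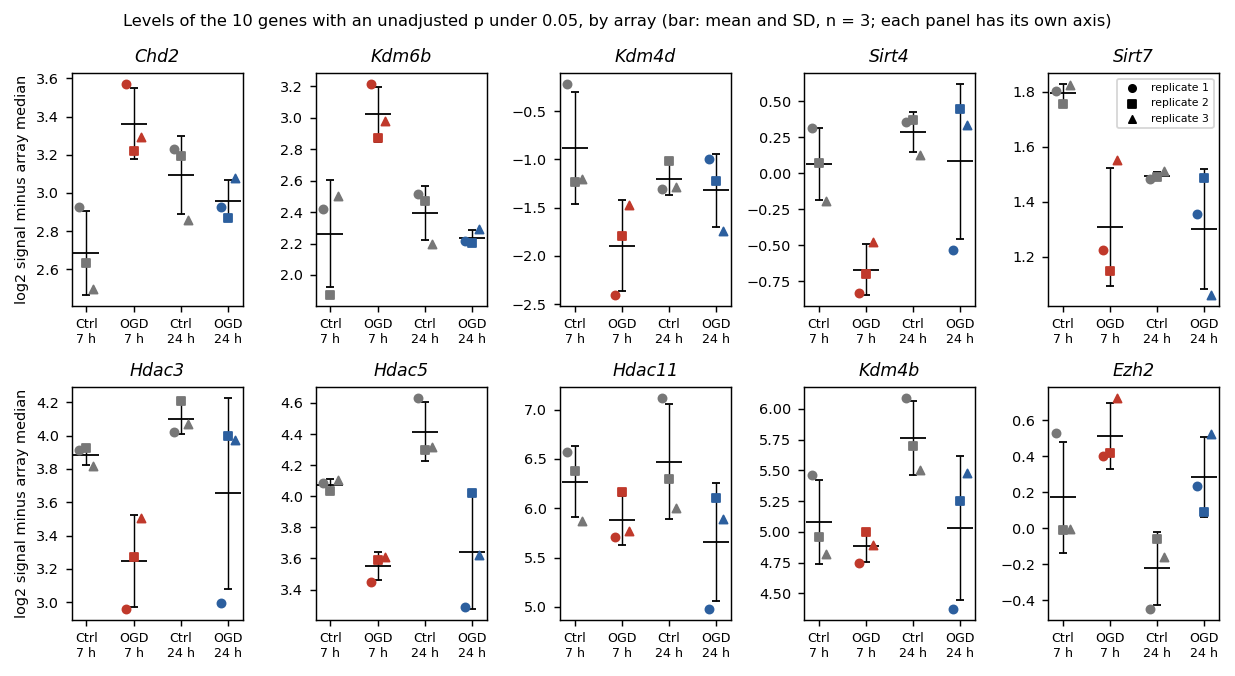
Level of each of the 10 called genes on the 12 arrays (y axis, log2 signal minus array median, own scale per panel), by group (x axis), with markers for replicates 1 to 3 and bars for mean and SD (n = 3). At 7 h all OGD values of Chd2 and Kdm6b lie above their controls and those of Hdac3, Hdac5, Sirt4, Sirt7 and Kdm4d below, while at 24 h replicate 1 is the lowest OGD array of Hdac3, Hdac5, Hdac11, Kdm4b and Sirt4.

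Ezh2, the catalytic subunit of the polycomb repressive complex and a gene of dividing progenitors, was the one member higher at 24 h. Control arrays read −0.45, −0.06 and −0.16 and OGD arrays 0.23, 0.09 and 0.53. All OGD arrays were above all control arrays, and the within-slide differences were 0.68, 0.15 and 0.69. The difference was 0.51 (SE 0.21), 1.42-fold higher (limma adjusted p = 0.342), and −0.52 with arrays scaled to a spike-in probe, where the median of all probes was −1.01 and Ezh2 was 0.50 above that median. With 1 array of 24 h left out Ezh2 ran from 0.39 to 0.60 and stayed called in 3 of 6 fits. With normexp it was 0.33 and not called, nor was it called in the fit of each time alone. At 7 h Ezh2 gave 0.34 (SE 0.21, limma adjusted p = 0.536) with overlapping groups. Of the 7 proliferation markers measured, Cdk1, Ccnb1, Ccna2, Pcna, Mcm2 and Aurkb were above 0 and Bub1 below at 24 h, with a median of 0.34, and 0 were called. Their summed signal was 39.6 to 62.6 times the array median in OGD and 38.0 to 46.1 in control, and the part of proliferating cells in the Ezh2 value was not tested. Its paralogue Ezh1 gave −0.41 (SE 0.27) at 7 h and −0.19 (SE 0.27) at 24 h. The heterochromatin methyltransferases Suv39h1 and Suv39h2 gave −0.61 (SE 0.28, limma adjusted p = 0.428) and −0.53 (SE 0.32, limma adjusted p = 0.526) at 7 h, each with all OGD arrays below all control arrays, and −0.33 and −0.47 at 24 h, where they were not called either.

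For DNA methylation the arrays held little. Dnmt1, the maintenance methyltransferase, was not well above background on any array, so no fold is given. Dnmt3l, a cofactor without catalytic activity, was well above background on 1 control array and 0 OGD arrays at 7 h and on 2 arrays of each group at 24 h. Dnmt3a, the de novo methyltransferase of neurons, read 1.57, 1.21 and 1.04 in control and 1.28, 1.49 and 1.51 in OGD at 7 h, overlapping (0.15, SE 0.34, limma adjusted p = 0.871). At 24 h it read 2.28, 2.31 and 2.07 in control and 0.64, 1.85 and 2.21 in OGD. The low value of OGD replicate 1 widened the spread, and the difference of −0.66 (SE 0.34) was not called (limma adjusted p = 0.418).

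Chd2 (chr1:136597993-136726874, GRCr8), a nucleosome remodeller whose loss of function is linked to childhood epilepsy, was the other gene higher at 7 h. It read 2.93, 2.63 and 2.49 in control and 3.57, 3.22 and 3.29 in OGD. All OGD arrays were above all control arrays, by 0.65, 0.59 and 0.80 within slides. The difference was 0.68 (SE 0.19), 1.60-fold higher (limma adjusted p = 0.270), and −0.13 when arrays were scaled to a spike-in probe (0.73 above the median of all probes under that scaling). Both other probes of the gene also gave higher values, 1.13 (SE 0.27, limma adjusted p = 0.237) and 1.19 (SE 0.30, limma adjusted p = 0.253), both called. At 24 h the groups overlapped on the brightest probe, with 3.23, 3.19 and 2.86 in control and 2.93, 2.87 and 3.08 in OGD. The difference there was −0.14 (SE 0.19, limma adjusted p = 0.772), and the other probes gave 0.30 and 0.21, not called.

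The Chd2 response was smaller at 24 h than at 7 h by −0.81 (SE 0.27, limma adjusted p = 1.0). On its other probes it was smaller by −0.83, not called, and by −0.98, called. Chd2 and Kdm6b were the 2 members (5.26%) called in this comparison of times, both lower at 24 h, where 1.4% of all probes were called lower and 2.18% higher, and 0 members were called higher. In the same 7 h arrays 1 of 11 microglia markers, Cx3cr1, and 2 of 9 astrocyte markers were higher, where 4.79% of all probes were. The summed astrocyte marker signal was 1220.0 to 1544.8 times the array median in OGD against 973.8 to 1110.9 in control. The summed microglia signal overlapped between the groups. It reached 28.9 times the array median in OGD and 16.6 in control, but the lowest OGD array lay below the highest control array. Of the 11 microglia markers 6 were above 0 and 5 below at 7 h. At 24 h 10 were above 0 and 1 below, and 1 (9.09%) was called higher, Cd68, where 7.51% of all probes were. Of the 11, 7 were well above background on all 12 arrays, Itgam on 3 and Ptprc on 0. The part of these cells in the Chd2 and Kdm6b values was not tested. Of the other remodellers Chd1 gave 0.15 (SE 0.20) at 7 h and 0.11 (SE 0.20) at 24 h, and Chd6 −0.43 (SE 0.33) and −0.46 (SE 0.33), none called on these probes. A dimmer probe of Chd1 gave 0.61 (SE 0.27, limma adjusted p = 0.419) at 7 h, higher on 3 of 3 slides and called, and 0.39 (SE 0.27) at 24 h, not called.

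**Figure D4:**
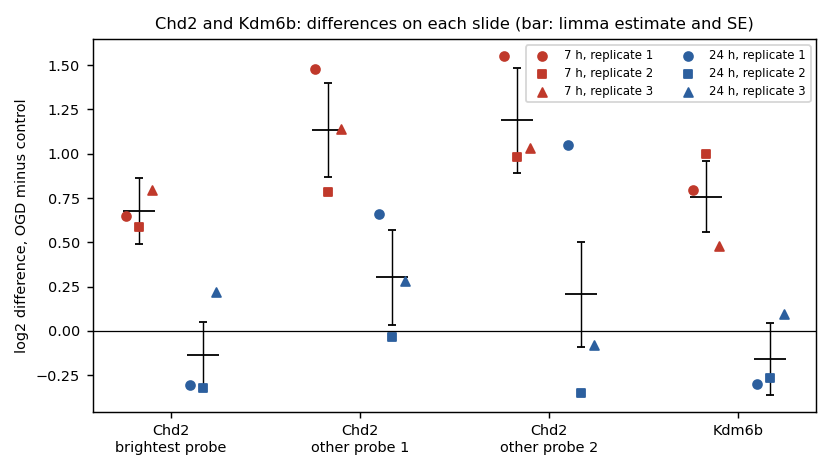
OGD minus control on each slide (y axis, log2) for the 3 probes of Chd2 and the probe of Kdm6b (x axis), at 7 h (red) and 24 h (blue), with markers for replicates 1 to 3 and bars for the limma estimate and its standard error. All 12 points of 7 h lie above 0, and those of 24 h lie on both sides of it for every probe.

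Proteins that work in complexes with these enzymes were read out as a second list. Of its 37 partners (NCoR, Sin3, NuRD, polycomb, heterochromatin and methyl-CpG binding genes) 25 had a probe, all well above background on every array. At 7 h 3 were lower (12% of those measured) and 0 higher, and at 24 h 2 were lower (8%) and 0 higher, with medians of −0.11 and −0.07. Among all probes 7.03% and 6.19% were lower, so these shares were close to the background. Ehmt2, the euchromatic histone methyltransferase also called G9a, was lower at both times, by −0.69 (SE 0.22, limma adjusted p = 0.293) and −0.72 (SE 0.22, limma adjusted p = 0.275). The others were Brpf1, a scaffold of Kat6a complexes (−0.48, SE 0.18, limma adjusted p = 0.340), and Tdg, the glycosylase of active DNA demethylation (−0.44, SE 0.20, limma adjusted p = 0.419), at 7 h, and Mta2, a NuRD subunit (−0.58, SE 0.23, limma adjusted p = 0.330), at 24 h.

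Several lower calls were close to the threshold. Of the 5 members lower at 7 h, 0 were called without OGD replicate 1, 2 without OGD replicate 2, 1 without control replicate 1 and 3 without control replicate 2 or 3. Their folds moved less than the calls: with 1 array of 7 h left out Hdac3 ran from −0.77 to −0.50, Sirt4 from −0.86 to −0.61, Sirt7 from −0.61 to −0.40 and Kdm4d from −1.22 to −0.67. Of the 3 lower at 24 h, 1 was called without OGD replicate 1 or without control replicate 1 or 2, while 8 members were called without OGD replicate 2 and 5 without OGD replicate 3. With 1 array of 24 h left out Hdac5 ran from −0.96 to −0.59, Hdac11 from −1.05 to −0.48 and Kdm4b from −0.95 to −0.40. Chd2 and Kdm6b at 7 h kept an unadjusted limma p under 0.05 with each of the 12 arrays left out in turn, but with normexp background correction they were 0.18 and 0.25 and neither was called. A fit with slide as a fixed block left Hdac5 as the only called member of 24 h, without Hdac11, Kdm4b and Ezh2. At 7 h that fit called Chd2 and Kdm6b higher and 5 members lower, with Suv39h1 in the place of Hdac5. The lower calls of 24 h stood beside the 8 of 14 neuron markers that were lower at that time, and the part of neurons in them was not tested.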

How the data were processed

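The authors hybridised Cy3-labelled RNA to Agilent whole-genome rat arrays and quantified spots with Agilent Feature Extraction 10.5.1.1. The deposited scanner tables hold background-corrected spot intensity (processed signal) for 44254 spots an array, of which 42877 are not controls. The authors also deposited median-centred log2 values, which lay within 0.01 of log2 intensity plus 1 constant per array for 99.92% to 100% of probes and served as an alternative. Their direction and scale follow from that match, and their column medians were 7.567 to 7.721, so the set of probes behind the authors' centring stays unknown.

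From the intensities, outlier spots were dropped, spots of a probe averaged, and log2 values centred on each array's median over the 30367 probes that are not controls (the authors' methods name median centring without this probe set). Of 364404 values 70 were missing. Probes took names from transcript accessions matched without versions to RefSeq (GRCr8): 18004 matched 1 gene and 12363 did not match, and the probe with the highest mean signal stood for a gene. Probe sequences were designed on rn4, and no probe coordinates are given. Coordinates and promoter sequences are those of RefSeq for GRCr8.

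limma 3.58.1 in R 4.3.3 fitted the 4 groups together with moderated two-sided tests, Benjamini-Hochberg adjusted over all probes, in place of the methods' t-test (an alternative). Arrays carry no read depth, and 3 arrays a group limit the precision. The fitting steps were tested on simulated data. Genes given in full are members with an unadjusted p under 0.05 in a contrast or in the difference between times, plus, for a role without one, its brightest member; other probes of Kdm1b and Chd1 were named after their values were seen. The members and lists were chosen with earlier results of these data known. Alternatives were other centring (75th percentile, quantile, the 1 of 10 kinds of spike-in probe usable on all arrays), normexp with offset 50 on the median signal (the mean signal was not used here), a dim-probe filter, each time alone, slide as a block, averaging of probes within a gene, and leaving out each array.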

Additional observations from a re-analysis of the deposited data

Results flagged for a closer look

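The response of 2 members differed between the recovery times by the limma test of the difference itself. Chd2 was 0.68 higher in OGD than in control at 7 h and −0.14 at 24 h on the log2 scale, so its response at 24 h minus that at 7 h was −0.81 (SE 0.27, limma adjusted p = 1.0). Kdm6b was 0.76 higher at 7 h and −0.16 at 24 h, a difference of −0.92 (SE 0.29, limma adjusted p = 1.0). On 3 of 3 slides of 7 h the OGD array was above its control for both genes, and at 24 h on 1 of 3. Neither difference passed the adjusted threshold.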

How the results depend on the processing

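Of the values recomputed for the named genes under the alternatives, 519 kept their direction and side of the threshold, 61 lost the call, 4 gained one and 10 changed sign. Scaling to the spike-in probe turned Chd2 (−0.13) and Kdm6b (−0.0489) at 7 h and Ezh2 (−0.52) at 24 h, all called before, and the uncalled Dnmt3a (−0.66) and Ezh2 (−0.47) at 7 h; it moved the median member to −1.02 at 7 h and −1.27 at 24 h and left 0 of the 5 lower and 0 of the 2 higher members called at 7 h, 0 of 3 and 0 of 1 at 24 h and 0 of 2 for the difference between times. Centring on the 75th percentile moved the median of all probes by 0.113 at both times and normexp by 0.132 at 7 h. The other changes of sign were also in uncalled values: Dnmt3a at 7 h (−0.16) and Kdm4d at 24 h (0.039) with normexp, Chd2 at 24 h (0.12) with probes averaged, and at 24 h Kdm4d without OGD replicate 3 and Sirt4 without OGD replicate 1 (with 1 array left out −0.28 to 0.090 and −0.39 to 0.11). The median over all members was −0.10 and −0.13 with the 75th percentile and −0.43 and −0.42 with normexp, against −0.21 and −0.25.

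With normexp, Chd2 was 0.18 and Kdm6b 0.25 at 7 h and neither was called; 1 member was higher at 7 h, 1 lower and 0 higher at 24 h, 0 for the difference between times, and by a fold of 2 there were 2 lower at 7 h, Hdac3 and Hdac5 and not Kdm4d, and 1 at 24 h. Fold-of-2 calls lower at 7 h numbered 0 under the 75th percentile, the spike-in probe, the authors' values and the methods' t-test, and the mean over a gene's probes gave 1 higher. With each time alone 1 was lower and 0 higher at 24 h, and the t-test gave 1 lower.

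The slide block takes arrays of the same replicate number as paired. Same-slide deviations from the group means correlated at −0.05, 0.11 and −0.01 at 7 h and 0.08, 0.17 and −0.01 at 24 h. Between slides the correlations ran from −0.075 to 0.066 at 7 h and from −0.18 to 0.11 at 24 h. With 3 arrays a group these values cannot show whether a number stands for a shared culture, and the main fit was left unpaired. The fixed block left 1 lower and 0 higher at 24 h. Leaving out 1 array gave 0 to 6 lower members at 7 h (2 to 3 higher, 0 to 1 lower by a fold of 2) and 1 to 8 lower at 24 h (0 to 1 higher, 0 to 1 lower by a fold of 2), and for the difference between times 2 to 3 lower and 0 to 2 higher. Over all probes 0 passed an adjusted p of 0.05 in limma, where 3590 at 7 h and 4160 at 24 h had an unadjusted p under 0.05, and 1 passed at 7 h by the t-test and 1 at 24 h with normexp. For dim probes such as Dnmt1 signal over background sets the limit. The cause of these changes was not tested.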
